A study of Rattus norvegicus with 9 samples.

Results

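Cyp4 fatty acid omega-hydroxylases were followed in the livers of ovariectomised rats given follicle-stimulating hormone (FSH) or vehicle. The genes were named by symbol: Cyp4a1, Cyp4a2, Cyp4a3, Cyp4a8, Cyp4b1, Cyp4f1 and Cyp4f4, 7 genes in all. Of these, 6 were found by symbol among the 24496 genes of the count table, 5 were among the 11924 genes that passed the filter on low counts, Cyp4a8 did not pass it, and Cyp4a3 was not analysed here. Each of the 9 libraries came from the liver of 1 female Wistar rat. Western diet began when the animals were 10 weeks old, and 6 weeks later the ovaries of all of them were removed. All then received degarelix, which blocks the receptor for gonadotropin-releasing hormone and so lowers an animal's own gonadotropins. Osmotic pumps delivered vehicle alone to 5 animals and FSH, at a daily 6 µg per kg of body weight, to 4 animals. Western diet was rationed for 12 days, then unrestricted for 7, and the animals were 19 weeks old when the liver was collected following a fast of 4 h. Vehicle animals were thus also without ovaries and under degarelix, and no group with intact ovaries or without degarelix is part of the comparison.

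Cyp4 enzymes are cytochromes P450 of the endoplasmic reticulum that place a hydroxyl group on the last carbon of a fatty acid, with electrons passed from NADPH by P450 reductase. Alcohol and aldehyde dehydrogenases then turn the product into a dicarboxylic acid, which peroxisomes shorten. The Cyp4a genes are textbook targets of the fatty acid receptor PPAR-alpha in rodent liver and are induced by fasting and fibrates. Cyp4f enzymes also inactivate leukotrienes and hydroxylate arachidonic acid.

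Cyp4a2 stands in a cluster of near copies, and its start region shows how close they are. In the RefSeq annotation of build GRCr8 the order of protein-coding genes along chromosome 5 is Cyp4x1, Cyp4a8, Cyp4a2, Cyp4a2l1, Cyp4a3, Cyp4a1 and Cyp4b1, and Cyp4f4, Cyp4f1 and Cyp4f6 are neighbours on chromosome 7. Promoter windows were found in the RefSeq table for 5 of the 7 named genes, among them Cyp4a2, Cyp4a3 and Cyp4a8. No window was found for Cyp4a1 or Cyp4f4, so the sequence results below do not cover them. The 250 bases before the annotated start of 4 Cyp4a genes are shown, as a measure of how alike these neighbours are; they are not the counted sequence itself, and where the counted gene models begin is not known here. They are written 5′ to 3′ on the gene's own strand, the minus strand of GRCr8, at chr5:134170909-134171158 (Cyp4a2), chr5:134257827-134258076 (Cyp4a2l1), chr5:134352237-134352486 (Cyp4a3) and chr5:133970227-133970476 (Cyp4a8). Capitals mark AGGTCA, the hexamer bound by many nuclear receptors.
Cyp4a2: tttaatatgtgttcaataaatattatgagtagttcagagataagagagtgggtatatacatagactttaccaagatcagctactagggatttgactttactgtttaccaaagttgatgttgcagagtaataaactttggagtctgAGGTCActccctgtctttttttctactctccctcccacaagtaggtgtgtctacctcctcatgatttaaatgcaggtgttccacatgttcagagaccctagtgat
Cyp4a2l1: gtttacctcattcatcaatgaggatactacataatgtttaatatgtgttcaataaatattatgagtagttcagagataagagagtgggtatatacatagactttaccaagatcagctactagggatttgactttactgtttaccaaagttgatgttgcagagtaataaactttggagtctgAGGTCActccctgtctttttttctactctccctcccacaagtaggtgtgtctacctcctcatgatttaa
Cyp4a3: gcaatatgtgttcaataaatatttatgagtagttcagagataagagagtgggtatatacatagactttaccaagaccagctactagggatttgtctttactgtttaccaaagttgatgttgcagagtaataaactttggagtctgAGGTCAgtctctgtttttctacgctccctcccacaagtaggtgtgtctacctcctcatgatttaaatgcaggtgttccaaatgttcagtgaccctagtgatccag
Cyp4a8: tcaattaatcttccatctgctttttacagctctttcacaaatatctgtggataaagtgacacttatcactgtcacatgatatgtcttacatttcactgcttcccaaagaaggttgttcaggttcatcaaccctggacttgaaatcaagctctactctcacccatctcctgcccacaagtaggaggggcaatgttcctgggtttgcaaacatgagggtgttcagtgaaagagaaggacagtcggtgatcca

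The Cyp4a2 and Cyp4a2l1 windows share a run of 214 identical bases with 0 mismatches, offset because the annotated starts differ. Cyp4a2 and Cyp4a3 were identical at 236 of 245 aligned bases (96.3%), while Cyp4a2 and Cyp4a8 were identical at 154 of 220 (70.0%). AGGTCA was found on the gene's own strand in the first 3 windows, beginning 105 bases before the start in Cyp4a2 and Cyp4a3 and 69 bases before it in Cyp4a2l1, and in neither orientation in Cyp4a8. The same letters, on either strand, were found in 14.1% of the 33469 windows of this length in the table. The full repeat AGGTCANAGGTCA, which contains the hexamer, had no match in the windows of these genes on either strand and matched 0.0508% of all windows, and the looser AGGNCANAGGNCA, also without a match here, matched 0.3675%. Such matches are letters in a window and were not tested as binding sites. Cyp4a2l1 was not analysed here as a row of its own, and how the authors' counting treated reads that fit several copies is not given in the sources used here, so the count of Cyp4a2 is uncertain as to which copy it comes from.

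Cyp4a2 was the 1 gene of the group whose level was higher in every FSH library than in every vehicle library. Its levels, in CPM (counts divided by the scaled library size), were 42.0, 26.0, 28.8, 18.7 and 32.5 in vehicle replicates 1 to 5. With FSH they were 57.5, 49.3, 54.2 and 60.4 CPM in replicates 1 to 4. The groups did not overlap, and the gap lay between vehicle replicate 1 and FSH replicate 2. Cyp4a2 (ENSRNOG00000030154) thus stood at 55.4 ± 4.76 CPM (SD, n = 4) with FSH and 29.6 ± 8.60 CPM (SD, n = 5) with vehicle, a ratio of the means of 1.87. These levels rest on 474 to 816 counts per vehicle library and 1216 to 1449 per FSH library.

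The log2 fold change of Cyp4a2 was 0.91 (SE 0.19) with an unadjusted p of 0.000594, and it did not pass the threshold over all genes (edgeR quasi-likelihood adjusted p, here called FDR, of 0.175; threshold 0.05). By p it ranked 39th of 11924 tested genes, and by fold change 86th from the top. DESeq2's Wald test gave a like fold change, 0.90 (SE 0.20), and called the gene (DESeq2 adjusted p = 0.00274), while limma-voom with sample weights gave 0.94 (SE 0.19) and did not (adjusted p = 0.185). DESeq2 called more genes in all, 177 of 15612, beside 4 of 11924 in edgeR. In the 9 fits that each left out 1 animal the fold change lay between 0.77 (without vehicle replicate 4) and 1.07 (without vehicle replicate 1), with edgeR adjusted p between 0.0889 and 0.326. It was 0.89 without FSH replicate 1, a library that stood apart from the others in gene composition.

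Cyp4a1, the classical fibrate-induced lauric acid hydroxylase, did not show the separation seen in Cyp4a2. Its levels were 345, 149, 281, 120 and 276 CPM in vehicle replicates 1 to 5 (3032 to 7958 counts). In FSH replicates 1 to 4 they were 167, 225, 237 and 336 CPM (4207 to 7780 counts). All 4 FSH values lay inside the vehicle range, and the lowest and the highest library were both vehicle animals. Cyp4a1 (ENSRNOG00000009597) averaged 241 ± 70.2 CPM (SD, n = 4) with FSH and 234 ± 95.7 CPM (SD, n = 5) with vehicle. The log2 difference was 0.04 (SE 0.31, adjusted p = 0.972 in edgeR), and 2 SE on either side spans −0.57 to 0.66. The same span for Cyp4a2, 0.53 to 1.28, overlaps it, and the difference between these fold changes was not tested in the fit. Leaving out 1 animal moved the fold change of Cyp4a1 between −0.16 (without FSH replicate 4) and 0.23 (without vehicle replicate 1), and it was also below 0 without vehicle replicate 2 (−0.09) or vehicle replicate 4 (−0.13).

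**Figure D1:**
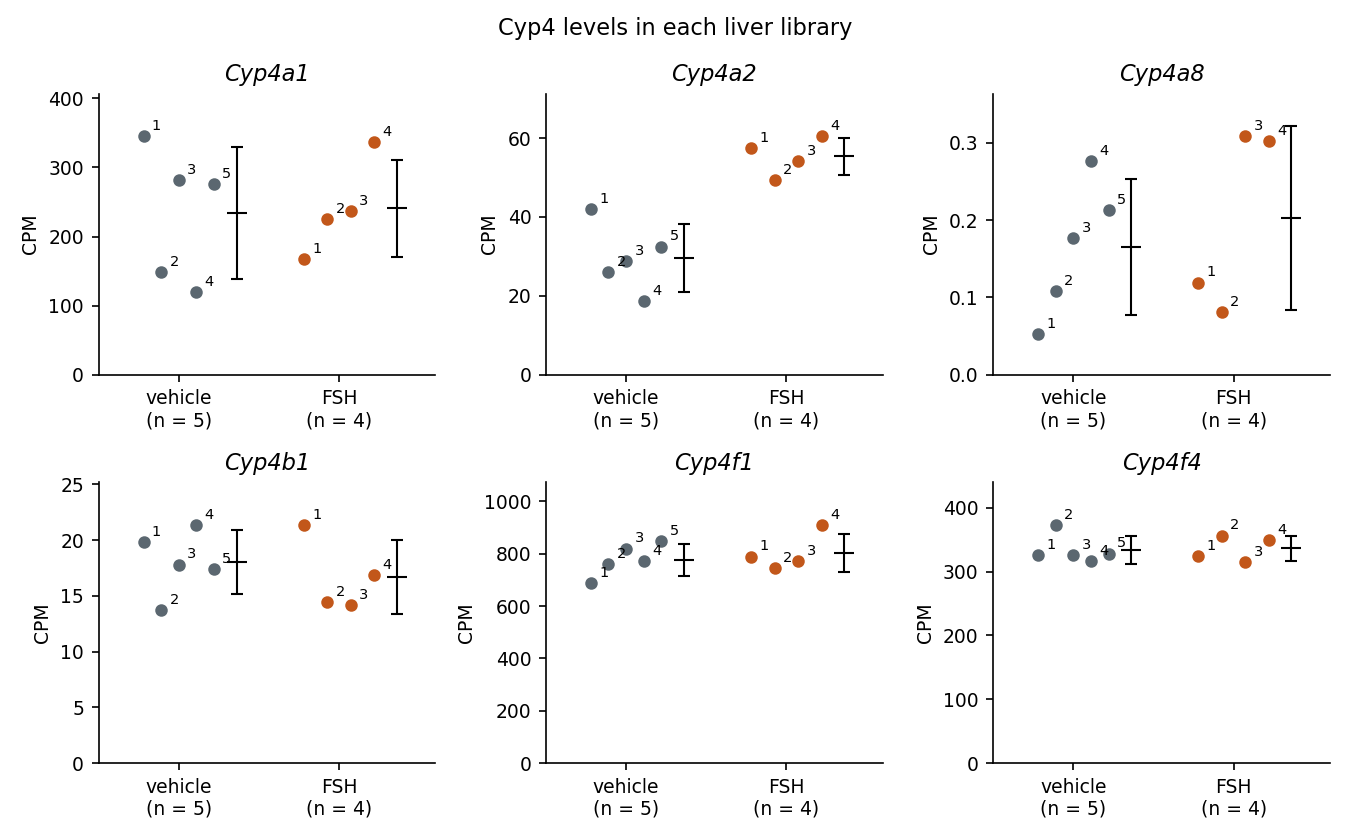
Level of 6 Cyp4 genes in each liver library, in CPM on a linear axis from 0, with 5 vehicle (grey) and 4 FSH (orange) animals; numbers beside points are replicate numbers and black bars are mean ± SD. Cyp4a2 is the 1 panel in which every FSH library (49.3 to 60.4 CPM) lies above every vehicle library (18.7 to 42.0 CPM).

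Because Cyp4a1 varied widely between animals, Cyp4a2 was also set against it within each library, where no scaling between libraries is needed. Cyp4a2 made up 10.9%, 14.9%, 9.29%, 13.5% and 10.5% of the summed Cyp4a counts (Cyp4a1, Cyp4a2 and Cyp4a8) in vehicle replicates 1 to 5. In FSH replicates 1 to 4 it made up 25.6%, 18.0%, 18.6% and 15.2%. The lowest FSH share and the highest vehicle share were close, with 95% Wilson intervals of 14.5% to 16.0% in FSH replicate 4 and 13.9% to 15.9% in vehicle replicate 2 (counting error only). FSH replicate 1 had the highest share of all.

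The mean share of Cyp4a2 was 19.4 ± 4.42% (SD, n = 4) with FSH and 11.8 ± 2.29% (SD, n = 5) with vehicle, a difference of 7.55 percentage points (exact 2-sided permutation test over libraries, p = 0.0159, the smallest this design can give, and 0.0238 adjusted over the 3 Cyp4a shares). The share of Cyp4a1 was lower by nearly the same amount (80.6% against 88.1%), which is the same result seen from the other side. Cyp4a8 made up under 0.2% in every library. The share was examined with the higher level of Cyp4a2 already known, so it is not independent evidence of that difference. Without FSH replicate 1 the difference was 5.47 points, and over the 9 fits without 1 animal each it lay between 5.47 and 8.93 points with exact permutation p between 0.0286 and 0.0357, in each case the smallest the remaining animals allow. Expressed as counts, each Cyp4a2 count was accompanied by 5.72 to 9.75 Cyp4a1 counts in vehicle libraries and by 2.90 to 5.56 in FSH libraries. This is a ratio of counts and not of transcript numbers, since the lengths of the transcripts were not used.

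With group means removed the Cyp4a1 and Cyp4a2 levels tended to go together, more plainly among vehicle than among FSH animals. Vehicle replicate 1 was the highest and vehicle replicate 4 the lowest vehicle animal for both genes, and FSH replicate 4 was the highest FSH animal for both. FSH replicate 1 went the other way, with the lowest Cyp4a1 of the FSH animals (167 CPM) and Cyp4a2 (57.5 CPM) above FSH replicates 2 and 3. The groups were not tested separately. Over all 9 libraries Pearson's r of log2 CPM was 0.52 (exact permutation p = 0.147) and Spearman's rho 0.42 (exact permutation p = 0.27), and r was −0.31 without vehicle replicates 2 and 4, the libraries farthest from the median of Cyp4a1. After each group's mean was removed, r was 0.82 (exact permutation within groups, p = 0.0125) and rho 0.80 (p = 0.0368 by the same exact permutation), and r was 0.58 without vehicle replicates 1 and 4. This pair was singled out with its values known. Among the 9 other pairs of tested named genes, r after removal of group means lay between −0.61 (Cyp4b1 with Cyp4f4) and 0.19 (Cyp4a1 with Cyp4f1).

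**Figure D2:**
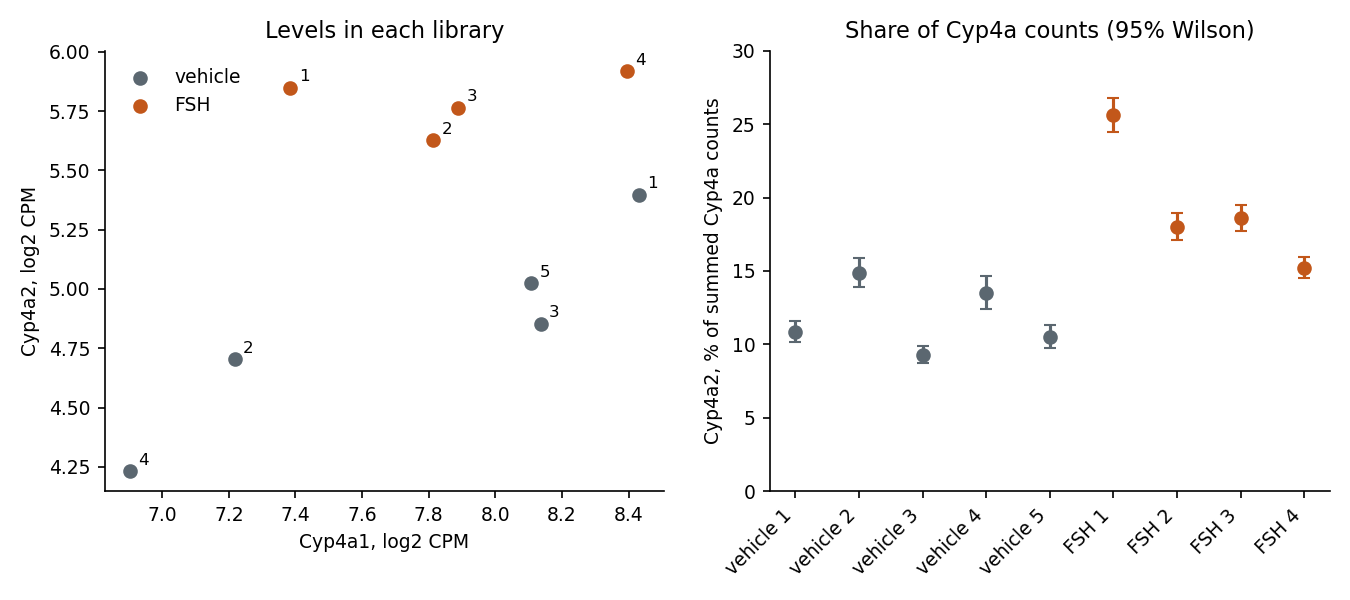
Left, Cyp4a2 against Cyp4a1 in each library, both in log2 CPM, with replicate numbers; right, Cyp4a2 as a percentage of summed Cyp4a counts in each library with its 95% Wilson interval. All FSH libraries (orange) lie above all vehicle libraries (grey) on the Cyp4a2 axis of the left panel while the groups overlap on the Cyp4a1 axis, and the FSH shares run from 15.2% to 25.6% against 9.29% to 14.9% in the right panel.

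Summed over the Cyp4a rows, the group difference was small beside the spread. The sum stood at 297 ± 72.5 CPM (SD, n = 4) with FSH and 264 ± 103.6 CPM (SD, n = 5) with vehicle. The log2 difference of the sum was 0.17 (SE 0.29; adjusted p = 0.861 in edgeR), and it was −0.0017 without FSH replicate 4 and 0.35 without vehicle replicate 1. Most of the Cyp4a counts belonged to Cyp4a1 in every library, so the sum followed that gene.

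Cyp4a8, a Cyp4a gene known mainly from the kidney, was near the limit of detection. It had 1, 3, 5, 7 and 4 counts in vehicle replicates 1 to 5 and 3, 2, 8 and 7 counts in FSH replicates 1 to 4. No fold change was read from these counts, as 3 counts are worth 0.106 to 0.159 CPM in these libraries. The low level speaks only to the reads assigned to that row.

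The Cyp4f members were steady across all 9 animals. Cyp4f1 (ENSRNOG00000004786), an arachidonic acid and leukotriene hydroxylase, had levels of 688, 760, 820, 772 and 848 CPM in vehicle replicates 1 to 5. Its levels in FSH replicates 1 to 4 were 789, 745, 771 and 910 CPM. The groups overlapped, with 3 of 4 FSH animals inside the vehicle range and FSH replicate 4 above it. The log2 fold change of Cyp4f1 was 0.05 (SE 0.09; adjusted p = 0.879 in edgeR), and 2 SE on either side spans −0.14 to 0.23.

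Cyp4f4 (ENSRNOG00000032895), which hydroxylates leukotrienes and prostaglandins, had levels of 326, 373, 326, 317 and 328 CPM in vehicle replicates 1 to 5. In FSH replicates 1 to 4 its levels were 324, 356, 315 and 350 CPM. Vehicle replicate 2 was the highest library and the other 8 lay within 315 to 356 CPM. The log2 fold change of Cyp4f4 was 0.01 (SE 0.08; adjusted p = 0.975 in edgeR), with a span of −0.14 to 0.17 at 2 SE, and its sign turned with library totals in place of scaling factors (−0.0085). Of the named genes, Cyp4f4 therefore had the narrowest bound on any difference.

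Cyp4b1 (ENSRNOG00000055078), a lung-type Cyp4 enzyme that acts on short-chain fatty acids and activates furan toxins, did not separate the groups. Its levels were 19.8, 13.7, 17.8, 21.3 and 17.4 CPM in vehicle replicates 1 to 5 and 21.4, 14.4, 14.1 and 16.8 CPM in FSH replicates 1 to 4. The groups overlapped almost completely. The log2 fold change of Cyp4b1 was −0.11 (SE 0.15; adjusted p = 0.832 in edgeR), and it was −0.25 without FSH replicate 1, the highest FSH animal, and −0.04 without FSH replicate 3.

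Of the 5 tested genes, 0 passed FDR 0.05 in edgeR, beside 0.0335% of all tested genes, and 1 had an unadjusted p under 0.05, beside 11.6% of all tested genes. The count past FDR 0.05 was 1 in DESeq2 (Cyp4a2), which called 177 of 15612 genes in all. It was 0 in limma-voom, which called 6 of 11924. All FSH libraries lay above all vehicle libraries for 1 of the 5, beside 2.19% of tested genes. Their median log2 fold change was 0.04, beside a median of 0.0019 over all tested genes. The other 4 genes had fold changes between −0.11 and 0.05, inside the 5th to 95th percentile of all tested genes (−0.40 to 0.40), and Cyp4a2 lay above it. In bulk liver, a change in the number of hepatocytes and a change in transcript per hepatocyte cannot be told apart.

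**Figure D3:**
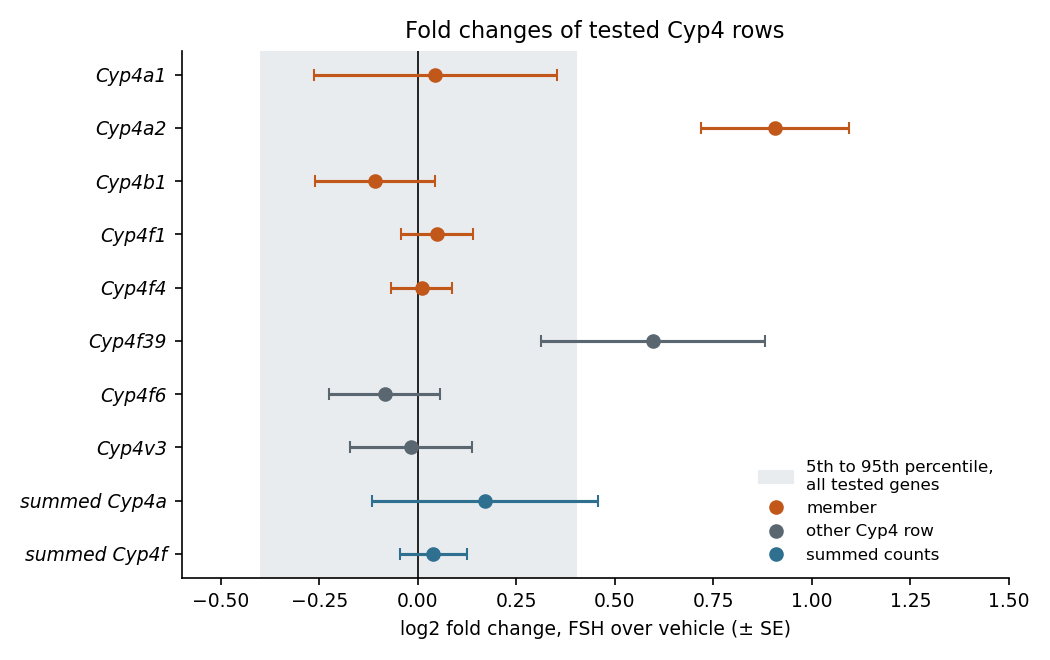
Log2 fold change (FSH over vehicle) ± SE of the tested Cyp4 rows and of the summed Cyp4a and Cyp4f counts; the grey band is the 5th to 95th percentile of all 11924 tested genes. Cyp4a2 at 0.91 and Cyp4f39 at 0.60 lie outside the band, and the other values lie within it.

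The spread between animals was wide for Cyp4a1 in both groups and for Cyp4a2 in the vehicle group, and narrow for Cyp4f1 and Cyp4f4. Cyp4a1 had a coefficient of variation of 40.9% among vehicle animals, higher than that of 97.7% of the 6651 tested genes that averaged 10 CPM or more, and of 29.1% among FSH animals. The median gene of that set had 10.1% in the vehicle group and 9.37% in the FSH group. Counting error at the lowest Cyp4a1 count is 1.82%, so the spread lay between animals or samples. Cyp4a2 had 29.0% among vehicle animals and 8.60% among FSH animals, and the difference between these spreads was not tested. Cyp4f1 (7.90% and 9.10%) and Cyp4f4 (6.70% and 5.91%) were below or near the median gene in both groups.

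The rest of the Cyp4 family was read from 7 further rows, of which 3 passed the filter. Cyp4f39 (ENSRNOG00000029478), whose enzyme acts on very long-chain fatty acids, had 17.8, 11.4, 12.7, 20.3 and 29.0 CPM in vehicle replicates 1 to 5 and 21.0, 31.7, 19.5 and 37.7 CPM in FSH replicates 1 to 4. FSH replicates 2 and 4 lay above the vehicle range and replicates 1 and 3 inside it. The log2 difference was 0.60 (SE 0.28; adjusted p = 0.457 in edgeR), and it was 0.40 without FSH replicate 4 and 0.82 without vehicle replicate 5. Cyp4f6, a neighbour and close relative of Cyp4f1, stood at 76.3 ± 10.5 CPM (SD, n = 4) with FSH and 80.9 ± 14.4 CPM (SD, n = 5) with vehicle (log2 difference −0.08; SE 0.14; adjusted p = 0.86 in edgeR). Cyp4v3, a fatty acid hydroxylase also known from the retina, stood at 278 ± 59.0 CPM (SD, n = 4) and 281 ± 44.8 CPM (SD, n = 5), and differed by −0.02 on the log2 scale (SE 0.15; adjusted p = 0.978 in edgeR).

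Rows with few counts completed the family. Cyp4x1, Cyp4f40 and Cyp4f18, the last an enzyme of neutrophils, had 0 to 5 counts in each library. Cyp4f37 had 0 counts in all 9 libraries, which allows up to 0.106 to 0.159 CPM per library at 3 counts, by counting error alone. A gene listed at 0 here cannot be taken as silent, since 8868 genes were listed at 0 in every library, 13 mitochondrial genes among them. Summed over its 7 rows, Cyp4f stood at 1244 ± 96.6 CPM (SD, n = 4) with FSH and 1211 ± 73.9 CPM (SD, n = 5) with vehicle, which differ by 0.04 on the log2 scale (SE 0.09; adjusted p = 0.898 in edgeR).

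For each tested named gene, the genes with the most similar pattern over the 9 libraries were taken by Pearson's r of log2 CPM among genes of at least 1 CPM. For Cyp4a2 they were Bnip3, a mitophagy receptor (r = 0.96), and Prex2, an exchange factor for Rac (r = 0.93). For Cyp4a1 they were Apol11a, an apolipoprotein L gene (r = 0.94), and Tmem218, a membrane protein of the primary cilium (r = 0.93). For Cyp4f1 they were Cdip1 (r = 0.98) and Fn3k, the fructosamine kinase (r = 0.89). For Cyp4f4 they were Tpd52l2 (r = 0.98) and Cog8, a subunit of a Golgi tethering complex (r = 0.94), and for Cyp4b1 they were Apbb1 (r = 0.94) and Ppp1r7 (r = 0.93). These are the highest values among all genes compared over 9 libraries that share scaling and group, and no gene was named for 2 of the 5. Bnip3 differed between the groups by 0.34 on the log2 scale (SE 0.09; adjusted p = 0.236 in edgeR) and Prex2 one of 0.80 (SE 0.22, edgeR adjusted p = 0.236), and those of the other 8 lay between −0.10 and 0.41.

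The genes that act with Cyp4 enzymes, or share their regulators, were then read from lists of known function. Among electron donors and the dehydrogenases that follow omega-hydroxylation, 0 of 11 tested members passed FDR 0.05 in edgeR, 1 had an unadjusted p under 0.05, 6 had fold changes above 0 and the median was 0.01. Over all tested genes these shares were 0.0335%, 11.6% and 50.5%. The smallest p-values belonged to Aldh1a1, a retinal and aliphatic aldehyde dehydrogenase (−0.47, SE 0.19, edgeR adjusted p = 0.396), and Aldh3a2, the fatty aldehyde dehydrogenase (0.22, SE 0.11, edgeR adjusted p = 0.498). Por, the P450 reductase on which Cyp4 enzymes depend, averaged 461 CPM in FSH animals and 456 CPM in vehicle animals, a log2 difference of 0.01 (SE 0.14; edgeR, adjusted p = 0.983). It is named for its role, after its value was seen.

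Genes for the peroxisomal handling of dicarboxylic and other fatty acids had 10 of 13 tested members with fold changes above 0, beside 50.5% of all tested genes. Their median was 0.21. A rise past FDR 0.05 in edgeR was found for 2, beside 0.0335% of all tested genes past it in either direction. These were Crat, the carnitine acetyltransferase (1.57, SE 0.17, edgeR adjusted p = 0.0145), and Acot4, a peroxisomal thioesterase that acts on dicarboxylyl-CoA (1.00, SE 0.11, edgeR adjusted p = 0.0145). Crat lost its call without vehicle replicate 1, 4 or 5 or FSH replicate 1 or 3 (adjusted p 0.0512 to 0.0948). Acot4 lost it without vehicle replicate 1 or 4 or FSH replicate 1, 3 or 4 (adjusted p 0.0514 to 0.0948), and its count is uncertain, since its near relatives could share reads. Ehhadh, the bifunctional enzyme of peroxisomal oxidation, named after its value was seen, differed by 0.13 on the log2 scale (SE 0.17; adjusted p = 0.826 in edgeR).

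Nuclear receptors and coregulators that act on Cyp4 genes had fold changes above 0 in 14 of 15 members, with a median of 0.21 and 0 past FDR 0.05 in edgeR; 50.5% of all tested genes had fold changes above 0. An unadjusted p under 0.05 was found for 2 of the 15, near the 11.6% of all tested genes. These were Creb3l3, a liver transcription factor that works with PPAR-alpha (0.37, SE 0.07, edgeR adjusted p = 0.175), and Ncoa2, a coactivator of nuclear receptors (0.33, SE 0.13, edgeR adjusted p = 0.364). DESeq2 called Creb3l3 (adjusted p = 1.05e-06). Ppara itself, named after its value was seen, was at 7.81 ± 2.05 CPM (SD, n = 4) with FSH and 6.02 ± 2.04 CPM (SD, n = 5) with vehicle (0.38, SE 0.25, edgeR adjusted p = 0.607).

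Other PPAR-alpha targets, a list that leaves out Cyp4 genes, leaned upward: 22 of 24 tested members had fold changes above 0, beside 50.5% of all tested genes. Their median log2 fold change was 0.40, and 16 had an unadjusted p under 0.05 with a higher level, beside 6.42% of all tested genes in that direction. In 10 of the 24 every FSH library lay above every vehicle library, beside 2.19% of all tested genes. Only Cpt1a, the gate enzyme of mitochondrial fatty acid oxidation, rose past FDR 0.05 in edgeR (1.31, SE 0.17, edgeR adjusted p = 0.0337), and it lost the call without vehicle replicate 1, 3, 4 or 5 or FSH replicate 1, 3 or 4 (adjusted p 0.0537 to 0.158). The list was drawn up with earlier results of these data known, so its direction is not independent evidence. Set beside it, Cyp4a2 at 0.91 lay above the list's median of 0.40 and Cyp4a1 at 0.04 below it, within a range of −0.92 to 1.31.

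Other enzymes of arachidonic acid metabolism had 7 of 9 tested members above 0 with a median of 0.04. An unadjusted p under 0.05 was found for 3, and 0 passed FDR 0.05 in edgeR. Over all tested genes these shares were 50.5%, 11.6% and 0.0335%. The smallest p-values belonged to Cyp2j4, an epoxygenase (0.46, SE 0.16, edgeR adjusted p = 0.337), and Ephx1, the microsomal epoxide hydrolase (−0.45, SE 0.17, edgeR adjusted p = 0.358). They had opposite signs, and neither passed.

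**Figure D4:**
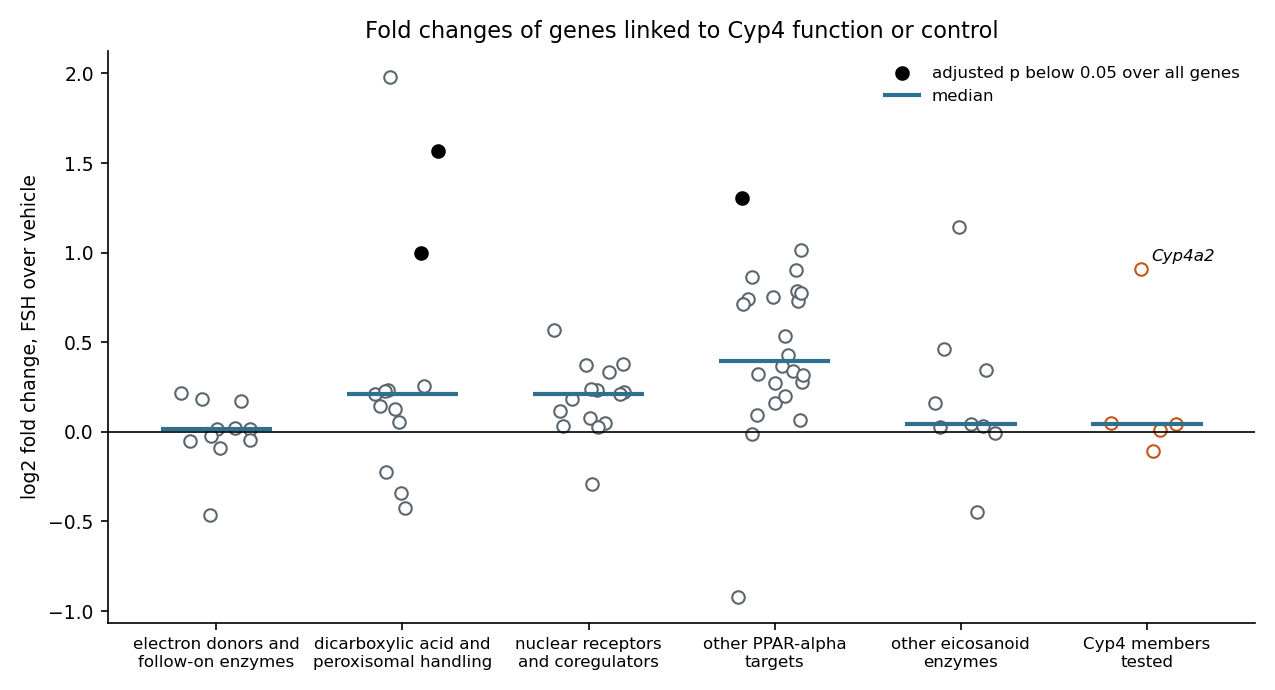
Log2 fold change (FSH over vehicle) of each tested gene in 5 lists linked to Cyp4 function or control and of the 5 tested Cyp4 genes; filled points passed an edgeR adjusted p of 0.05 over all genes and blue lines are medians. Other PPAR-alpha targets have a median of 0.40, while 4 of the 5 Cyp4 genes lie between −0.11 and 0.05.

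Library totals ran from 19295580 to 28672439 counts. The tissue label was borne out by hepatocyte markers, whose 8 genes summed to 134282 to 237897 CPM with FSH and 160995 to 203232 CPM with vehicle, most of it Alb. Of the 8, 2 had fold changes above 0 (median −0.12), beside 50.5% of all tested genes. They ran from Tat (−0.88, SE 0.31, edgeR adjusted p = 0.34), lower in every FSH library, to Fgb (0.55, SE 0.18, edgeR adjusted p = 0.312). FSH replicate 1 stood apart in gene composition, with Alb at 19.4% of its counts against 10.5% to 16.7% elsewhere. Kidney, a tissue rich in Cyp4a, was checked by 8 markers: Umod, Slc34a1, Nphs1 and Aqp2 were at 0 in all libraries, and the sum of the list was 2.14 to 3.11 CPM with FSH and 0.631 to 1.78 CPM with vehicle. Of these markers, Slc12a3 alone passed the filter on low counts (log2 difference 1.28; SE 0.28; adjusted p = 0.19 in edgeR), and the part of kidney markers in the Cyp4a2 result was not tested. Lung markers summed to 0.691 to 1.31 CPM with FSH and 0.989 to 1.74 CPM with vehicle, with Sftpc, Sftpb and Scgb1a1 at 0 in all libraries. Pericentral hepatocyte markers, of the zone in which Cyp4a is induced, summed to 6158 to 8801 CPM with FSH and 4716 to 9456 CPM with vehicle. Of 8 tested, 3 had fold changes above 0 (median −0.08), 1 had an unadjusted p under 0.05 and 0 passed FDR 0.05 in edgeR. Over all tested genes these shares were 50.5%, 11.6% and 0.0335%. Endothelial markers had 6 of 7 above 0 (median 0.34, summed 200.5 to 261 CPM with FSH and 170 to 226 CPM with vehicle). Stellate cell markers had 0 of 6 above 0 (median −0.28, summed 156 to 187 CPM with FSH and 204 to 267 CPM with vehicle). Both counts stand beside 50.5% of all tested genes. An unadjusted edgeR p under 0.05 was found for 4 endothelial markers, all higher, and 2 stellate markers, both lower, beside 11.6% of all tested genes. In both lists 0 passed FDR 0.05 in edgeR, beside 0.0335%. The part of these cells in the Cyp4a2 result was not tested. Erythroid markers summed to 121 to 490 CPM with FSH and 75.9 to 157 CPM with vehicle, with 4 of 4 tested above 0 (median 0.84). Kupffer cell and macrophage markers summed to 309 to 438 CPM with FSH and 163 to 496 CPM with vehicle, with 2 of 7 above 0 (median −0.06). These counts too stand beside 50.5% of all tested genes. Periportal hepatocyte markers summed to 11665 to 14950 and 10003 to 17027 CPM, with 3 of 9 above 0 (median −0.19), beside 50.5% of all tested genes. The part of these markers in the results was not tested either.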

How the data were processed

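RNA from snap-frozen liver of 9 individual rats was sequenced as paired-end directional mRNA libraries, per the labels' protocols. The authors deposited 1 table of raw read counts per gene, not normalized; STAR, edgeR, DESeq2 and build rn6 are named, without versions or roles, per the submitters' processing notes. No annotation, strand setting or treatment of multiply mapped reads is given in the sources used here. Each library is a separate animal by its label.

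Counts were tested as deposited with edgeR 4.0.16 (R 4.3.3; TMM factors, filterByExpr, quasi-likelihood F-test), with group as the only term; p-values were adjusted by Benjamini-Hochberg for all 11924 tested genes, which carry nearly all counts of each library. Log2 CPM used a prior count of 2. Shares of counts were compared by exact permutation over libraries (2-sided, the smaller tail doubled), with Wilson 95% intervals. Replicate numbers did not pair the animals. On simulated counts for this comparison (11849 genes tested) the test called 81.8% of 99 genes changed by 1 on the log2 scale, 96% of 99 changed by 2, and 0.0687% of 11651 unchanged genes. The adjusted threshold depends on how many genes are changed, and the real comparison called only 4 of 11924. The simulated shares therefore need not hold for these data, and a missing call is not evidence of no change. The alternatives were DESeq2 1.42.0, limma-voom (limma 3.58.1) with sample weights, other scalings and filters, a replicate block, summed Cyp4a counts, an FDR of 0.1 and each animal left out. Promoter windows came from RefSeq (GRCr8).

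The members and lists were chosen with earlier results of these data known. Named were all Cyp4 rows, from each list the genes past FDR 0.05 (at most 4) or else those with the 2 smallest p-values, and for each tested member the 2 genes most like it in log2 CPM. Levels were not compared between genes, since transcript lengths were not used. A kidney marker of the planned list is not reported here.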

Additional observations from a re-analysis of the deposited data

Results flagged for a closer look

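Cyp4f4 in vehicle replicate 2 stood apart from its group, at 373.2 CPM, with the other 4 vehicle animals between 317 and 328 CPM. Of the 30 sets of values checked in this way, 1 held a sample that stood apart, and chance gives about 1 in 20, or 1.5 of 30. Without vehicle replicate 2 the log2 fold change of Cyp4f4 was 0.05 (edgeR adjusted p = 0.847).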

How the results depend on the processing

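Of the values recomputed under the alternatives, 485 kept their direction and side of the threshold (or, for counts of genes, stayed within 1.5 times), 24 turned sign, 17 lost their call, 2 gained one and 9 counts of genes moved by over 1.5 times. The number of genes past FDR 0.05 was 4, and it was 177 with DESeq2, 12 at an FDR of 0.1, 5 with the replicate block and 0 to 4 when 1 animal was left out (0 without vehicle replicate 1 or 4 or FSH replicate 1 or 3). DESeq2 called Cyp4a2 (0.90, adjusted p = 0.00274) and Creb3l3 (0.37); the cause was not tested. The sign turned for Cyp4f4 with library totals (−0.0085), Cyp4v3 with the replicate block (0.035) and Cog8 with limma-voom (0.026), all near 0. With 1 animal left out, log2 fold changes crossed 0 for Cyp4a1 (−0.16 to 0.23), summed Cyp4a (−0.0017 to 0.35), Cyp4f1 (−0.017 to 0.081), Cyp4f4 (−0.023 to 0.049), Cyp4v3 (−0.16 to 0.061), Apbb1 (−0.23 to 0.018), Cdip1 (−0.057 to 0.10), Fn3k (−0.013 to 0.21), Tpd52l2 (−0.0083 to 0.089) and Cog8 (−0.039 to 0.032). Same-numbered animals share only a number (correlations of deviations −0.041 to 0.035, and 0 of 4 FSH libraries correlated best with their own number); with the replicate block, which drops vehicle replicate 5, Cyp4a2 was 0.99 (edgeR adjusted p = 0.256). Pooling Cyp4a2 with Cyp4a3 was not run, as Cyp4a3 was not analysed here. Depth limits Cyp4a8, Cyp4x1, Cyp4f18 and Cyp4f40, with at most 8 counts per library.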
